A study of Mus musculus with 6 samples.

Results

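The genes described here encode nuclear subunits of the mitochondrial respiratory chain and of ATP synthase. They were chosen by symbol alone: all 79 of the 35976 rows of the count table whose symbol was Nduf followed by a, b, c, s or v and a number with nothing after it, or began with Uqcr, with Cox4 to Cox8, or with Atp5. By prefix these were 36 genes of complex I, 8 of complex III, 18 of complex IV and 17 of complex V. The symbols use no measured value, but the set was proposed with the contrast between the groups already known. The log2 ratios below are therefore a description, and the p-values given beside them support nothing about the set.

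The respiratory chain passes electrons from NADH to oxygen through complexes I, III and IV and pumps protons across the inner mitochondrial membrane. Complex V, the ATP synthase, uses the returning protons to make ATP. Most subunits are nuclear genes, a small core is encoded in mitochondrial DNA, and several subunits of complex IV have tissue isoforms. Cartilage is poorly supplied with oxygen and its cells rely heavily on glycolysis.

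Polyadenylated RNA was sequenced from chondrocytes, the cells that make cartilage matrix, isolated from hind limb articular cartilage of C57BL/6 x 129S4/SvJae mouse embryos at day 18.5. All cultures were kept on plastic in doxycycline at 2 µg/ml for 16 population doublings, and doxycycline induced an H3.3 transgene. The H3K9M group (3 libraries, replicates 1, 3 and 5) expressed H3.3 with methionine at lysine 9 and is labelled as having suppressed H3K9 methylation. The H3WT group (3 libraries, replicates 1, 2 and 4) expressed wild-type H3.3. The promoter driving the transgene and whether embryos were pooled are not given in the sources used here, and p-values measure only the spread between these libraries.

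Total counts were 15113675 to 19606082 per library, and 13761 genes passed the filter on low counts. Of these 0 passed an adjusted p of 0.05 (edgeR quasi-likelihood test, Benjamini-Hochberg adjustment over all tested genes). The DESeq2 Wald test, with its own filter, called 365 of 15329 genes. At an unadjusted p under 0.05 in edgeR, 883 genes (6.42%) were higher in H3K9M and 794 (5.77%) lower. All 8 chondrocyte markers examined were detected in all 6 libraries, with summed levels of 7287 to 11379 CPM (reads relative to library size, scaled by the trimmed mean of M-values) in H3K9M and 7184 to 18759 CPM in H3WT, where replicate 2 was the highest. All 8 had negative log2 ratios (H3K9M over H3WT), but the groups overlapped in each of the 8. Of all tested genes, 8.68% had all H3K9M libraries below all H3WT libraries. At an unadjusted p under 0.05 in edgeR, 1 marker, Col9a1, was lower (5.77% of tested genes). The part of the chondrocyte markers in the results below was not tested. The transgene cannot be told from the endogenous H3.3 genes in counts per symbol.

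Of the 79 genes, 75 passed the filter on low counts. The summed level of the 79 was 6651, 6050.2 and 6252 CPM in the H3K9M libraries and 5159, 5386 and 4813 CPM in the H3WT libraries, in the order of replicates 1, 3 and 5 and replicates 1, 2 and 4 that is kept throughout. Every H3K9M library thus lay above every H3WT library, and the group means were 6318 ± 306 and 5119 ± 288 CPM (SD, n = 3 each). The log2 ratio of H3K9M over H3WT from the edgeR fit, given below ± its standard error, had a median over the 75 genes of 0.39, against -0.0029 over all tested genes. It was positive in 72 of the 75 and negative in Cox4i2, Cox6b2 and Ndufv1. In 46 of the 75 all 3 H3K9M libraries lay above all 3 H3WT libraries, a separation found in 10.7% of tested genes, and in 0 of the 75 was the order opposite (8.68% of tested genes). Of the 75, 38 were higher in H3K9M at an unadjusted p under 0.05 and 0 were lower, but 0 passed an adjusted p of 0.05, where the background was 0%. The smallest adjusted p among them was 0.17. With the DESeq2 Wald test 10 members passed an adjusted p of 0.05, as did 2.38% of tested genes. Without H3WT replicate 2, 2 members passed in edgeR (Uqcrh and Atp5j2, with 0.639% of tested genes), 47 were higher at an unadjusted p under 0.05 (9.09%) and 58 were separated (19.5%). Without H3K9M replicate 1 the last 2 counts were 26 (4.35%) and 46 (14.8%). In bulk RNA, fewer cells of a type and less RNA per cell cannot be told apart.

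**Figure D1:**
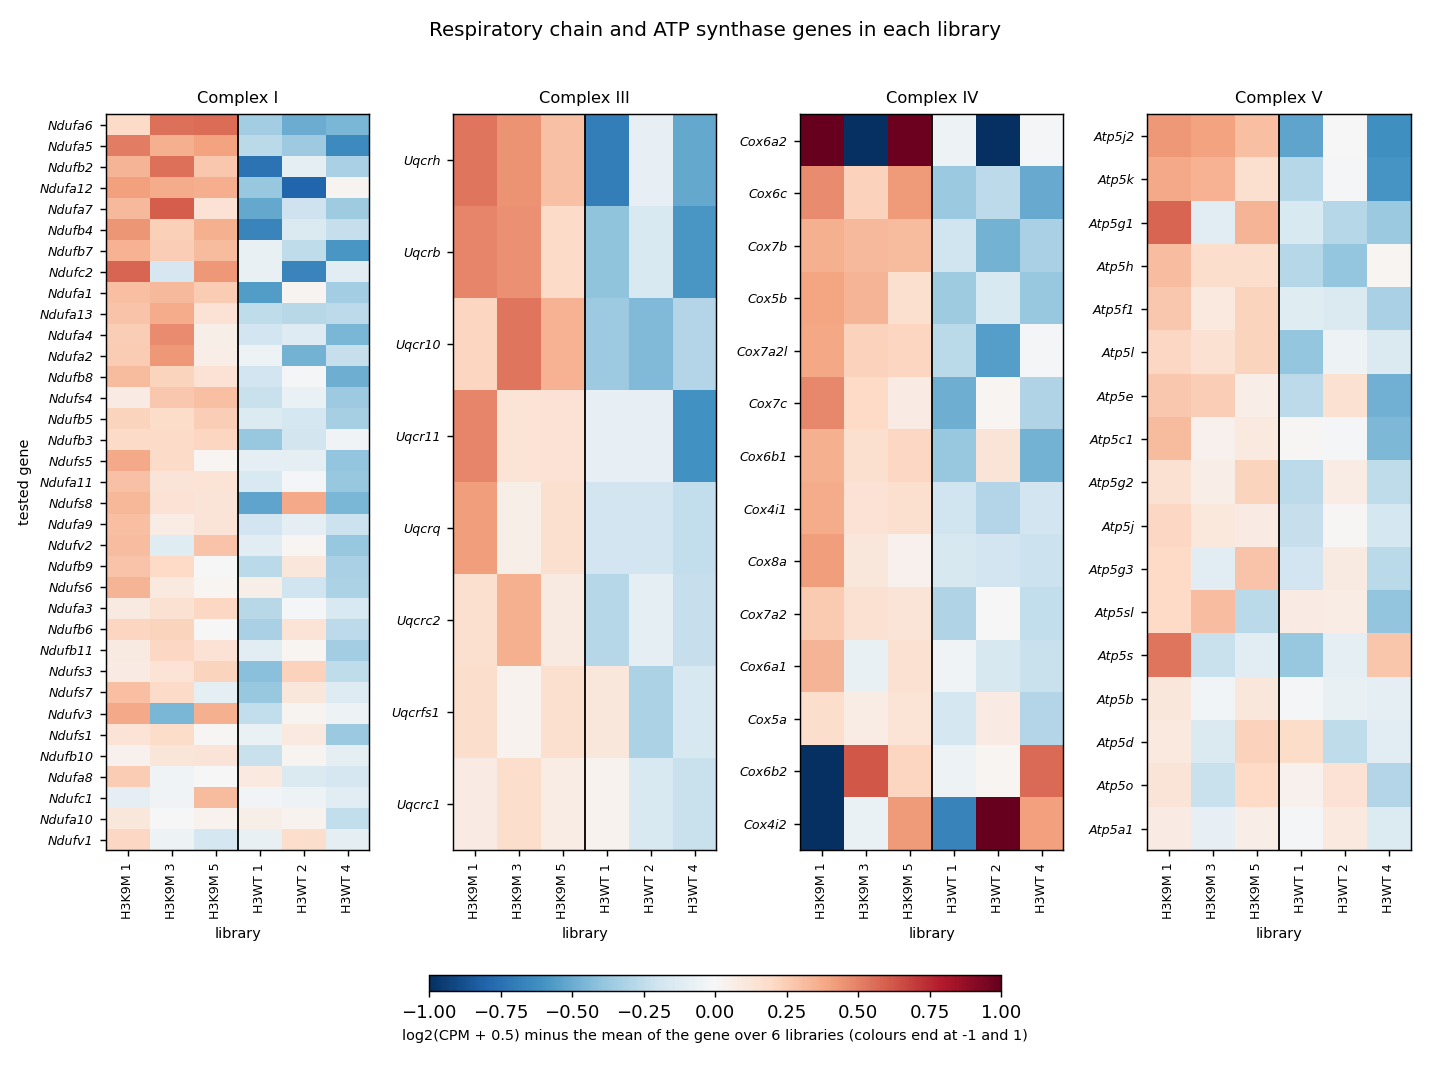
Log2(CPM + 0.5) of 74 of the 75 tested genes in each library (columns), relative to the mean of the gene over the 6 libraries, with genes ordered within each complex by log2 ratio. The 3 columns left of the black line are H3K9M and those to the right H3WT, and the 45 of these genes whose groups do not overlap are redder in every left column than in any right column.

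Promoters of these genes are known to hold sites for NRF1, ETS factors such as GABPA, and YY1, and 3 motifs were searched on both strands in RefSeq promoters (GRCm38.p6), from 250 bases before to 50 after the start, found for 66 of the 79 genes. The letters were GCGCA, any base and GCGC for NRF1, CCGGAAG for ETS and AAGATGGCG for YY1. The NRF1 letters occurred in 22.2% of the 63 tested members with a promoter, against 10.4% of 10561 tested genes and 4.78% of all 27025 promoters. The ETS letters occurred in 20.6% of tested members, close to the 18.0% of tested genes. The YY1 letters occurred in 11.1%, against 3.16% of tested genes. Members that held the NRF1 letters had a median log2 ratio of 0.34 (14 genes) and those that did not 0.39 (49 genes). For YY1 the medians were 0.31 (7 genes) and 0.39 (56 genes), and for ETS 0.39 (13 genes) and 0.35 (50 genes). The median was thus slightly lower with the letters for NRF1 and YY1 and slightly higher for ETS. A match is a description and not a site of binding.

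Windows of 60 bases around NRF1 matches are shown for 3 members with larger and 3 with smaller log2 ratios, 5′ to 3′ along the gene, with the matching letters in capitals. A match on the other strand, as in Ndufa8, shows as its reverse complement. The letters stand near the starts of genes with larger and with smaller log2 ratios.
Ndufa5 (chr6:24527682-24527741, minus strand): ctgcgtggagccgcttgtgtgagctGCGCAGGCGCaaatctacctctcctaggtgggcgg
Ndufb4 (chr16:37654525-37654584, minus strand): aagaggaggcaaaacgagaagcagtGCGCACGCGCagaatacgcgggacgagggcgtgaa
Atp5k (chr5:108434415-108434474, minus strand): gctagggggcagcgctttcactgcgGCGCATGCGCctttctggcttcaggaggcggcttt
Ndufa11 (chr17:56717677-56717736, plus strand): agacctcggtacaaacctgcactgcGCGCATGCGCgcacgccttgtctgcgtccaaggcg
Cox6a1 (chr5:115349086-115349145, minus strand): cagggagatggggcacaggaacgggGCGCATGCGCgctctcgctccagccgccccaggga
Ndufa8 (chr2:36049339-36049398, minus strand): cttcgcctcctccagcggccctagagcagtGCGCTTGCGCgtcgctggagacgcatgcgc
The log2 ratios of these 6 genes were, in the same order, 0.86, 0.70, 0.58, 0.37, 0.28 and 0.15.

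The YY1 letters lay at nearly the same place in all 7 members that held them, with the first base 23 to 36 bases after the start and on the strand of the gene. In a window of 22 to 36 bases, set after seeing these positions, 0.805% of tested genes held the letters in that orientation. In 7 of the 7 the ATG within the match is an annotated start codon in GENCODE M21, so the letters can also be those of the first codons. Of these 7 genes only Ndufs6 also held an NRF1 match, which did not overlap its YY1 match, and none held an ETS match. Of the 7, 4 are shown with the match in capitals.
Atp5j2 (chr5:145191500-145191528, minus strand): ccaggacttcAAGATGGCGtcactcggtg
Ndufa9 (chr6:126849097-126849125, minus strand): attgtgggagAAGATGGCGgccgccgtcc
Ndufc1 (chr3:51408915-51408943, minus strand): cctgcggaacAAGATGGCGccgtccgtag
Ndufs7 (chr10:80249463-80249491, plus strand): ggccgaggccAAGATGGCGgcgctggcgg

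Complex I takes electrons from NADH. Its 36 genes had a median log2 ratio of 0.36, with 35 of 36 positive, 22 of 36 separated in favour of H3K9M and 17 at an unadjusted p under 0.05. Of all tested genes 10.7% were separated in that direction and 6.42% were higher at that p. The 7 core subunits, which carry the flavin and the iron-sulfur clusters or lie next to them, had smaller log2 ratios. Their median was 0.26, 0 of 7 reached an unadjusted p of 0.05, and 1 of 7 was separated, close to the share of all tested genes. The 29 accessory subunits, which surround the core, had a median of 0.44, with 17 of 29 at an unadjusted p under 0.05 and 21 of 29 separated. With the offset for transcript length and GC content described below, 27 of 36 were positive, those that turned negative being Ndufa3, Ndufa8, Ndufb3, Ndufb6, Ndufb10, Ndufb11, Ndufc1 and Ndufs6. The medians with that offset were 0.066 for the core and 0.14 for the accessory subunits. The difference between core and accessory subunits was not tested.

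Ndufa6, an accessory subunit (chromosome 15, 82350140 to 82354322, minus strand, GRCm38), had the largest log2 ratio of complex I. Its levels were 39.9, 51.4 and 51.5 CPM in the H3K9M libraries against 27.3, 24.5 and 25.3 CPM in the H3WT libraries. The groups did not overlap, and the log2 ratio was 0.89 ± 0.16 (edgeR adjusted p 0.17). Ndufa5, another accessory subunit, had 30.7, 27.4 and 28.4 CPM in the H3K9M libraries against 17.6, 16.6 and 13.6 CPM in the H3WT libraries (log2 ratio 0.86 ± 0.18, edgeR adjusted p 0.192). Ndufb2 was lower in level but similarly placed, with 16.4, 19 and 15.6 CPM in the H3K9M libraries against 7.52, 12 and 10.2 CPM in the H3WT libraries (log2 ratio 0.78 ± 0.24). In both genes the lowest H3K9M library was above the highest H3WT library. Ndufa13, also known as GRIM-19, varied little within H3WT, at 120.0, 127 and 109 CPM in the H3K9M libraries against 82.2, 80.8 and 81.7 CPM in the H3WT libraries (log2 ratio 0.54 ± 0.11). Ndufa12 and Ndufa7 had log2 ratios of 0.74 and 0.73, Ndufb4 0.70, Ndufb7 0.60 and Ndufa1 0.58. The other accessory genes at an unadjusted p under 0.05 were Ndufa2, Ndufa9, Ndufa11, Ndufb3, Ndufb5, Ndufb8, Ndufs4 and Ndufa4, between 0.34 and 0.52. Ndufa4 carries a complex I name but is known to associate with complex IV.

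At the other end of complex I, Ndufv1, which binds NADH and the flavin, had 92.6, 77.3 and 71 CPM in the H3K9M libraries against 76.2, 90.9 and 75.5 CPM in the H3WT libraries. Its groups overlapped fully, with means of 80.3 ± 11.1 CPM over the H3K9M libraries against 80.9 ± 8.67 CPM over the H3WT libraries (SD, n = 3 each) and a log2 ratio of -0.0099 ± 0.14. Ndufa10 and Ndufc1, both accessory, had log2 ratios of 0.096 and 0.14 with overlapping groups. Ndufs8, a core subunit with iron-sulfur clusters, had 51.8, 45.4 and 44.8 CPM in the H3K9M libraries against 28.2, 53.3 and 29.7 CPM in the H3WT libraries, so H3WT replicate 2 was above every H3K9M library. In Ndufs3, too, H3WT replicate 2 was the highest library, just above H3K9M replicate 5.

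Complex III passes electrons from ubiquinol to cytochrome c, and its 8 genes were all higher on average in H3K9M. Their median log2 ratio was 0.47. Of the 8, 7 were separated (10.7% of tested genes) and 6 were higher at an unadjusted p under 0.05 (6.42%). The 5 small subunits (Uqcrb, Uqcrh, Uqcrq, Uqcr10 and Uqcr11) had a median of 0.75 and were all separated. Their median was 0.30 with the length and GC offset. Uqcrh, the hinge protein (chromosome 4, 116066965 to 116075071, minus strand), had 94.1, 89 and 79.8 CPM in the H3K9M libraries against 40.0, 61.4 and 45.4 CPM in the H3WT libraries. H3WT replicate 2 was the nearest to the H3K9M libraries, and the log2 ratio was 0.84 ± 0.18 (edgeR adjusted p 0.194). Without H3WT replicate 2 it was 1.05, with an adjusted p of 0.0321. Uqcrq and Uqcr11 had log2 ratios of 0.43 and 0.51. Uqcr10 had 45.6, 56.8 and 50.1 CPM in the H3K9M libraries against 30.4, 28.7 and 31.8 CPM in the H3WT libraries (log2 ratio 0.75 ± 0.14), and Uqcrb had a log2 ratio of 0.76 ± 0.16. The core proteins Uqcrc1 and Uqcrc2 and the Rieske iron-sulfur protein Uqcrfs1 had smaller values. Their median was 0.24, or 0.19 with the length and GC offset. Uqcrc1 had 167, 179 and 167 CPM in the H3K9M libraries against 163, 143 and 136 CPM in the H3WT libraries and a log2 ratio of 0.22 ± 0.12. Uqcrc2 had 0.41. Uqcrfs1 had 0.24, which turned negative with the length and GC offset, and was the member of complex III whose groups overlapped.

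Complex IV, cytochrome c oxidase, hands electrons to oxygen. The 11 genes of its general isoforms had a median log2 ratio of 0.46, with 11 of 11 positive. Of the 11, 9 were separated (10.7% of tested genes) and 9 were higher at an unadjusted p under 0.05 (6.42%). Cox6c (chromosome 15, 35925886 to 35938246, minus strand) had 74.8, 63.1 and 72.3 CPM in the H3K9M libraries against 41.4, 44.7 and 37.7 CPM in the H3WT libraries. The gap between the groups was wider than the range of either group, and the log2 ratio was 0.76 ± 0.14 (edgeR adjusted p 0.17). Cox7b was nearly constant within H3K9M, at 67, 65.7 and 65.3 CPM in the H3K9M libraries against 45.6, 37.7 and 41.8 CPM in the H3WT libraries (log2 ratio 0.66 ± 0.13, edgeR adjusted p 0.171). Cox5b had 129, 124 and 109.6 CPM in the H3K9M libraries against 76.6, 88.1 and 75.2 CPM in the H3WT libraries (log2 ratio 0.60 ± 0.12). The 2 general genes whose groups overlapped were Cox6a1, with 0.28, and Cox5a, with 0.25, which turned negative with the length and GC offset. Cox7c, Cox6b1, Cox8a and Cox7a2 had log2 ratios from 0.36 to 0.51, with the groups apart in each. Cox7a2l, which is known to link complexes III and IV in supercomplexes, had 0.55 ± 0.15.

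The tissue isoforms of complex IV had low counts or none. Cox4i1, the general form of subunit 4, had 180.0 ± 15.9 CPM over the H3K9M libraries against 131 ± 5.11 CPM over the H3WT libraries (SD, n = 3 each) and a log2 ratio of 0.46 ± 0.12. Cox4i2, the form known from lung and low oxygen, had 1.74, 4.35 and 6.33 CPM in the H3K9M libraries against 2.69, 10.3 and 6.24 CPM in the H3WT libraries, with the highest value in H3WT replicate 2 and the lowest in H3K9M replicate 1. Its log2 ratio was -0.62 ± 0.60, about as large as its error. Cox6b2, a testis form, had 9, 80 and 55 reads in H3K9M and 40, 46 and 63 in H3WT, and its log2 ratio was -0.19 ± 0.69. Cox6b1, the general form of the same subunit, had 104, 91.1 and 93.7 CPM in the H3K9M libraries against 62.3, 88.9 and 58.6 CPM in the H3WT libraries. Its H3WT replicate 2 stood apart from the other H3WT libraries, close to H3K9M. The heart and muscle form Cox6a2 had 41, 0 and 35 reads in H3K9M and 11, 0 and 11 in H3WT, and 1 library of each group was at 0. Its log2 ratio was 1.82 ± 1.62. Cox7a1 and Cox8b, also heart and muscle forms, did not pass the filter. Cox7a1 had 0, 1 and 5 reads in H3K9M and 0, 0 and 4 in H3WT, and Cox8b had 0, 4 and 0 reads in H3K9M and 0, 0 and 0 in H3WT. The testis forms Cox7b2 and Cox8c had 0 reads in all 6 libraries, and a count of 0 allows up to 3 reads per library. The matching general forms Cox7a2, Cox7b and Cox8a were all separated in favour of H3K9M, with log2 ratios of 0.36, 0.66 and 0.39.

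Complex V had the smallest median log2 ratio of the 4 complexes. Its 17 genes had a median of 0.29, with 17 of 17 positive. Of the 17, 8 were separated (10.7% of tested genes) and 6 were higher at an unadjusted p under 0.05 (6.42%). With the length and GC offset 13 of the 17 genes were positive (not Atp5g3, Atp5l, Atp5o and Atp5s). The F1 head, where ATP is made, is encoded by 5 of them, with a median of 0.13. Of these 5, 0 reached an unadjusted p of 0.05 and 1 was separated (10.7% of tested genes). With the length and GC offset the median of the F1 genes was 0.091, the same as for complex V as a whole. Atp5a1, the alpha subunit (chromosome 18, 77773729 to 77782869, plus strand), had 682, 609 and 676 CPM in the H3K9M libraries against 635, 689.7 and 586 CPM in the H3WT libraries. The groups overlapped and the highest library was H3WT replicate 2, with a log2 ratio of 0.042 ± 0.13. Atp5b, the catalytic beta subunit, had 899.8, 815 and 897 CPM in the H3K9M libraries against 818, 787 and 774 CPM in the H3WT libraries (log2 ratio 0.13 ± 0.12). Atp5d, the delta subunit, had 0.12. The remaining F1 genes had larger values, with 0.29 for Atp5c1, whose groups did not overlap, and 0.37 for Atp5e, whose groups overlapped.

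The small membrane subunits Atp5j2, Atp5k and Atp5l were all separated (10.7% of tested genes). Their median was 0.58, or 0.27 with the length and GC offset. Atp5j2 (chromosome 5, 145183698 to 145192062, minus strand) had 64.6, 63.2 and 59.1 CPM in the H3K9M libraries against 33.1, 48 and 31.1 CPM in the H3WT libraries, with H3WT replicate 2 again nearest to the H3K9M libraries (log2 ratio 0.74 ± 0.18, edgeR adjusted p 0.227). Without H3WT replicate 2 its log2 ratio was 0.97 with an adjusted p of 0.0362. Atp5k had 0.58 ± 0.18. In the peripheral stalk, Atp5f1 had 168, 149 and 162 CPM in the H3K9M libraries against 128, 126 and 111 CPM in the H3WT libraries (log2 ratio 0.39 ± 0.12), Atp5h 0.43 and Atp5j 0.26. Atp5o, also of the stalk, had 0.066 with overlapping groups. With the length and GC offset the median of the stalk genes was 0.032. The proton-carrying c ring is built from a protein that Atp5g1, Atp5g2 and Atp5g3 all encode. Atp5g1 had 101, 62.9 and 85.8 CPM in the H3K9M libraries against 60.7, 55.4 and 52.2 CPM in the H3WT libraries (log2 ratio 0.57 ± 0.18). Atp5g2 had 0.29 and Atp5g3 0.25, and in both the groups overlapped. Atp5s and Atp5sl, which RefSeq now calls Dmac2l and Dmac2, are not subunits of the enzyme. Their log2 ratios were 0.16 ± 0.37 and 0.16 ± 0.24, within their errors.

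**Figure D2:**
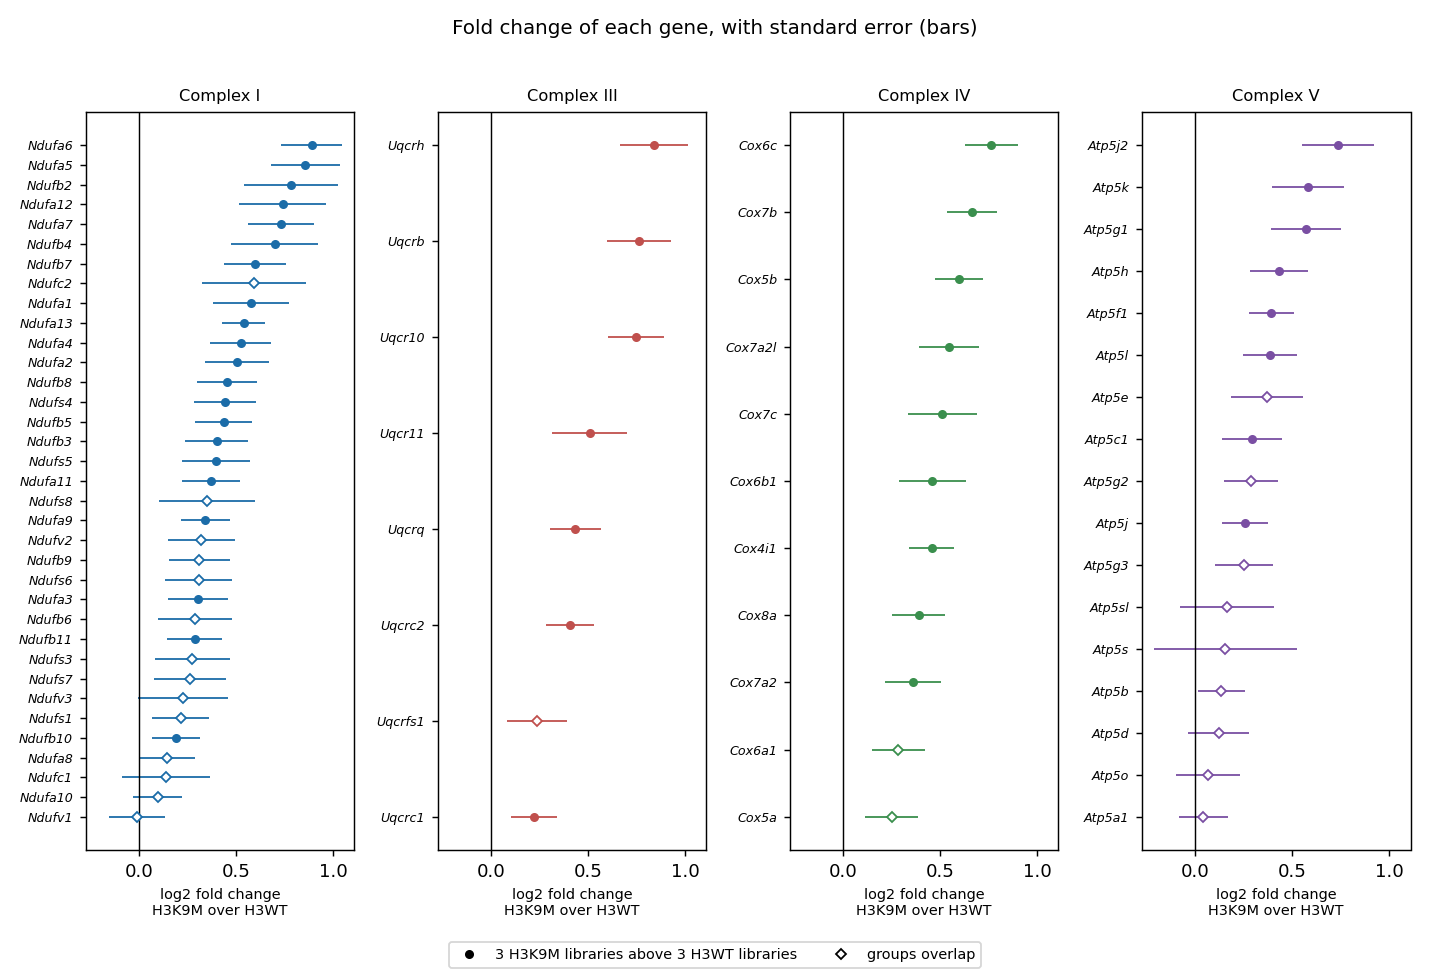
Log2 ratio (H3K9M over H3WT, horizontal axis) of 71 of the 75 tested genes by complex, with bars for 1 standard error of the edgeR fit. Cox4i2, Cox6a2 and Cox6b2 are left out for their large errors. Ndufa6, Uqcrh and Cox6c lie at the top of their complexes, with values up to 0.89, and Ndufv1, Uqcrc1 and Atp5a1 at the bottom of theirs. Small subunits such as Atp5o (0.066) and Ndufc1 (0.14) also lie near the bottom, and Uqcrc2, a large subunit, has 0.41.

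Levels per length were compared as mean CPM over the 6 libraries per kilobase of the longest annotated coding transcript. Atp5b, at 434, and Atp5a1, at 242, were the highest of the 79. In complex IV the highest were Cox6a1, at 212, and Cox4i1, at 203. Uqcrh (125) and Uqcrc1 (96.3) led complex III, and Ndufa4 (104) and Ndufb9 (93) led complex I on this scale. The tissue isoforms were far lower, with 7.19 for Cox4i2 and 4.45 for Cox6b2. The values of Atp5g1 (14.8) and Ndufb2 (3.08) rest on annotated transcripts of 4715 and 4371 bases, long for such small proteins, and are lower than a shorter transcript would give. Within the 3 c-ring genes Atp5g3 had 181 and Atp5g2 83.1.

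The position of each library was taken as the median over a list of log2 CPM minus the mean of each gene over the 6 libraries. For the 75 genes it was 0.29, 0.16 and 0.16 in H3K9M and -0.20, -0.082 and -0.27 in H3WT. The groups did not overlap, and H3WT replicate 2 lay nearest to H3K9M. The small subunits of complex III were further apart, at 0.49, 0.45 and 0.20 in H3K9M and -0.37, -0.15 and -0.51 in H3WT. For the core subunits of complex I the positions were 0.28, 0.14 and 0.015 in H3K9M and -0.11, 0.12 and -0.26 in H3WT, where H3WT replicate 2 lay above H3K9M replicate 5. For the F1 head they were 0.12, -0.027 and 0.096 in H3K9M and -0.022, -0.011 and -0.14 in H3WT, where H3K9M replicate 3 lay below 2 of the 3 H3WT libraries.

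**Figure D3:**
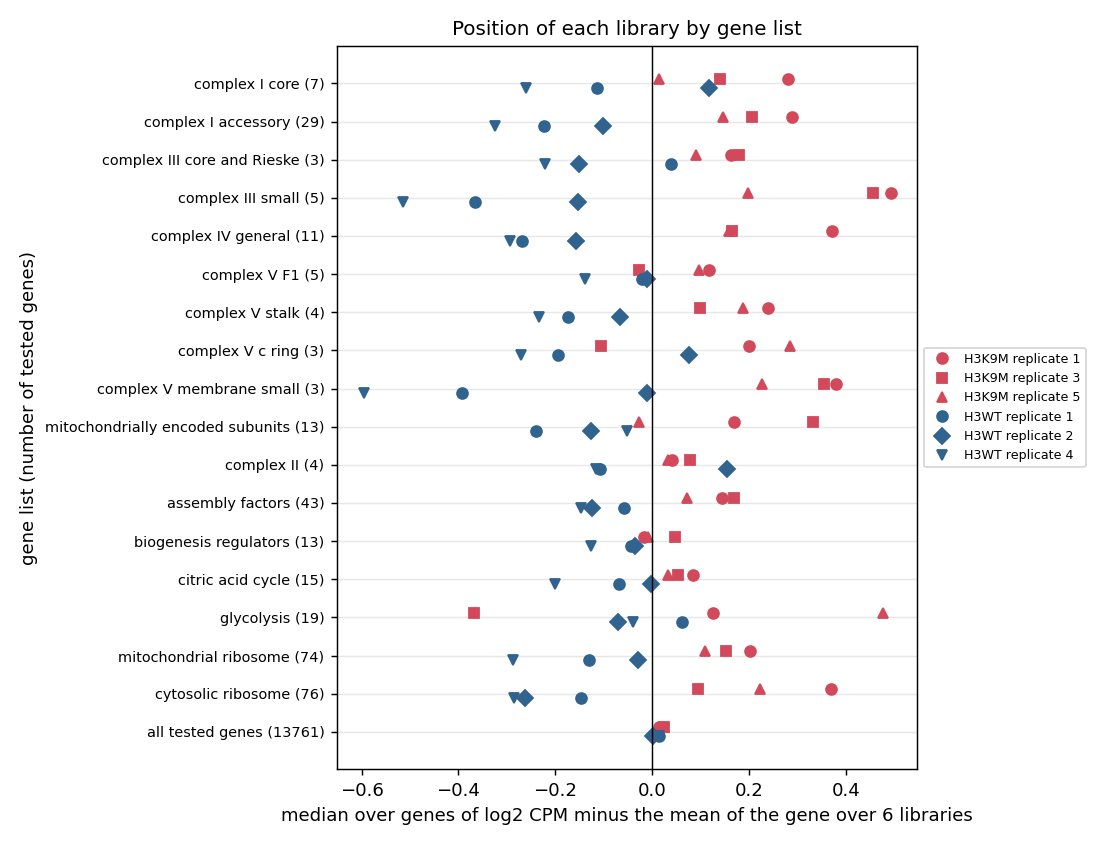
Position of each library (horizontal axis, median log2 difference from the mean of each gene) for 9 classes of respiratory chain and ATP synthase subunits and 8 other gene lists, with all tested genes at the bottom. Red points are H3K9M and blue points H3WT. The groups separate for most subunit classes, for the mitochondrial and cytosolic ribosome lists and for assembly factors. They separate narrowly for mitochondrially encoded subunits, biogenesis regulators and the citric acid cycle, and overlap for complex II and glycolysis.

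Other genes of the pathway were read from lists written with earlier results of these data known, and 0 members of any list passed an adjusted p of 0.05 over all tested genes. The 13 subunits encoded in mitochondrial DNA all had positive log2 ratios, with a median of 0.30. Of these 7 were separated (10.7% of tested genes) and 3 were higher at an unadjusted p under 0.05 (6.42%). The summed level of the 13 overlapped between the groups. It was 22734, 25718 and 18655 CPM in the H3K9M libraries and 16843, 18367 and 19854 CPM in the H3WT libraries. ATP8, a subunit of complex V, had 79.9, 93.7 and 75.2 CPM in the H3K9M libraries against 57.3, 58.7 and 58.2 CPM in the H3WT libraries, and the groups did not overlap. The log2 ratios of ATP8 and ATP6, also of complex V, were 0.51 ± 0.13 and 0.42 ± 0.12. Of 7 related genes outside the symbol pattern, all had positive values. Usmg5, an ATP synthase subunit, had 0.73 ± 0.16, Atpif1, the ATP synthase inhibitor, 0.53 ± 0.14, Cycs, which encodes cytochrome c, 0.64 ± 0.19, and the complex III subunit Cyc1 0.097 ± 0.12. Ndufa4l2, a hypoxia target, had 27.3, 5.94 and 101 CPM in the H3K9M libraries against 10.0, 5.76 and 22.5 CPM in the H3WT libraries, so its high mean in H3K9M came from replicate 5.

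Complex II, which is wholly nuclear, had 0 of 4 genes at an unadjusted p under 0.05, where 6.42% of all tested genes were higher and 5.77% lower. Its median was 0.14, or -0.0052 with the length and GC offset. Sdhc was lower in H3K9M on average (-0.34 ± 0.16) and Sdhd higher (0.26 ± 0.14). Of 43 assembly factors 34 had positive values, with a median of 0.25. At an unadjusted p under 0.05, 9 were higher (6.42% of tested genes) and 0 lower (5.77%). Sco2 (0.64 ± 0.21) and Uqcc2 (0.39 ± 0.13) had the smallest p. The 13 regulators of mitochondrial biogenesis had a median of 0.025. Nrf1 had 0.19 ± 0.17, Gabpa 0.23 ± 0.13, Tfam 0.29 ± 0.17 and Esrra 0.0011 ± 0.16. Polg, the mitochondrial DNA polymerase, was lower in H3K9M at -0.32 ± 0.11. The coactivator Ppargc1a was scarce, at 0.871, 1.40 and 4.08 CPM in the H3K9M libraries against 0.730, 8.56 and 0.766 CPM in the H3WT libraries, with H3WT replicate 2 the highest. The citric acid cycle had a median of 0.13 over 15 genes, or -0.0043 with that offset, with Fh1 at 0.33 and Sucla2 at 0.30. Glycolysis had 0.093 over 19 genes, 0 of them at an unadjusted p of 0.05, and Gapdh and Pfkp had the smallest p. The 11 hypoxia targets had a median of 0.19, or 0.26 with that offset, and 8 of them had positive values. Among them 1, Adm, was lower at an unadjusted p under 0.05 (5.77% of tested genes) and 0 were higher (6.42%). Adm had 43.1, 17.2 and 40.6 CPM in the H3K9M libraries against 157, 116 and 154 CPM in the H3WT libraries.

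The difference was also found outside the respiratory chain. The 76 tested genes of the cytosolic ribosome had a median log2 ratio of 0.46, with 76 of 76 positive and 71 separated, Rps27l (0.76) and Rpl37 (0.70) having the smallest p. The 74 genes of the mitochondrial ribosome had a median of 0.31, with 66 positive and 25 separated. The share separated over all tested genes was 10.7%. With the length and GC offset the medians of the cytosolic and mitochondrial ribosome were 0.17 (71 of 76 positive) and 0.091 (50 of 74). Mrpl33 had 44.3, 44.4 and 37.7 CPM in the H3K9M libraries against 20.5, 25.4 and 16.9 CPM in the H3WT libraries, and Mrps36 a log2 ratio of 1.00. These values give no ground to call the difference particular to respiratory chain genes.

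Transcript length moved with the log2 ratio. Among tested genes that were not members, the median log2 ratio was 0.22 for transcripts of up to 700 bases, 0.30 for 701 to 1000, 0.19 for 1001 to 1500, 0.059 for 1501 to 2500 and -0.060 above 2500 bases. In the same ranges the members had medians of 0.51 (25 genes), 0.31 (20), 0.35 (11), 0.26 (14) and 0.39 (4). The members thus lay close to other genes of 701 to 1000 bases and above other genes in the remaining ranges. The 4 longest were Atp5a1 (0.042), Ndufs1 (0.21), Atp5g1 (0.57) and Ndufb2 (0.78). The annotated transcripts of Atp5g1 and Ndufb2, of 4715 and 4371 bases, are long for such small proteins. Their place in this range, and so the median of 0.39, is uncertain. Members of up to 700 bases were separated in 18 of 25 cases, against 23.5% of other genes in that range, and those of 701 to 1000 bases in 12 of 20, against 29.8%. With a per-library offset for transcript length and GC content the median of the 75 genes was 0.12, 58 of 75 were positive, 10 were higher at an unadjusted p under 0.05 (4.36% of tested genes) and 18 were separated (8.03% of tested genes). The offset is fitted on all genes and takes out any difference that goes with length, of whatever source.

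**Figure D4:**
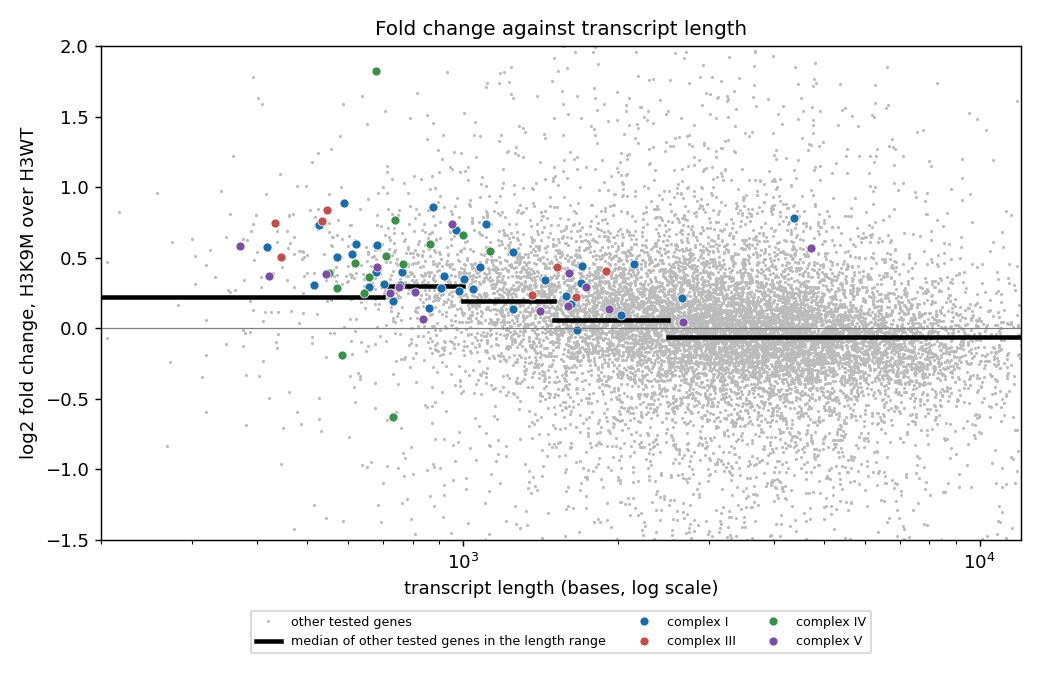
Log2 ratio (H3K9M over H3WT) against the length of the longest annotated coding transcript (log scale) for members, coloured by complex, and other tested genes in grey, with the vertical axis cut so that the most extreme genes are not shown. Black lines mark the median of the other genes in 5 length ranges, from 0.22 for the shortest to -0.060 for the longest, and most members lie above them.

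Counts of several members could be shared with copies. Of the 75 tested genes, 74 were found in GENCODE M21 (not Atp5sl), and 31 had a transcript of a gene elsewhere with at least 90% identity over 200 or more bases there, and their counts are uncertain. Of the 66 such genes 5 are rows of the count table. Atp5l had the most, with 14 such genes. An exon overlap was also common: 25 of the 74, 11 of them among the 31, overlap an exon of a gene on the opposite strand, as Cox6c overlaps Vps13b, and the strand setting is not stated. The 31 genes had a median log2 ratio of 0.51, with 25 separated and 22 at an unadjusted p under 0.05. The 43 with no similar transcript had 0.31, with 21 separated and 16 at that p. Of all tested genes 10.7% were separated in favour of H3K9M and 6.42% were higher at that p. The part of shared counts in the difference was not tested. For the 26 genes found to have neither a similar transcript nor an overlapping gene the median was 0.29. Of these 23 were positive, 11 separated and 9 at an unadjusted p under 0.05. Ndufa6, Uqcr10 and Ndufa5 are among the 26.

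Markers of skeletal muscle, which lies beside the cartilage and is rich in respiratory chain subunits, were higher on average in H3K9M. The summed level of 12 muscle genes was 181, 261 and 31.8 CPM in the H3K9M libraries and 36.8, 15 and 30.0 CPM in the H3WT libraries. Of the 8 tested, 8 had positive log2 ratios and 5 were separated (10.7% of tested genes). Tnnt3, a troponin of muscle fibres, had 153, 224 and 117 reads in H3K9M and 5, 40 and 28 in H3WT, and Myod1, a muscle determination factor, had 291, 1179 and 84 reads in H3K9M and 0, 20 and 0 in H3WT. Ckm had 13, 0 and 0 reads in H3K9M and 0, 0 and 0 in H3WT, and Myh8 was at 0 in all 6 libraries. The summed level was highest in H3K9M replicates 1 and 3. Most of the sum in H3WT replicates 1 and 4 came from Acta1, a skeletal muscle actin, and without it the sums were 149, 228 and 25.9 CPM in the H3K9M libraries and 10.7, 11.8 and 5.95 CPM in the H3WT libraries. With all 12 genes H3K9M replicate 5 lay below H3WT replicate 1, so the groups overlapped. Without Acta1, left out after its values were seen, all 3 H3K9M libraries were above all 3 H3WT libraries. The groups were also apart by position, at 1.88, 2.32 and 0.20 in H3K9M and -1.08, -0.85 and -1.15 in H3WT. The tested genes that were not separated were Acta1, Mylpf and Actn3, each lower in H3K9M replicate 5 than in H3WT replicate 1. Of the 75 members, 59 lay above all 3 H3WT libraries in H3K9M replicate 5 (25.5% of all tested genes did), 67 in replicate 1 (26.8%) and 54 in replicate 3 (30.7%). The part of muscle RNA in the result was not tested. Macrophage and blood markers summed to 8.04, 16.5 and 9.13 CPM in the H3K9M libraries and 6.29, 3.84 and 4.59 CPM in the H3WT libraries, with 4 of 8 at 0 in every library, among them Ptprc and Adgre1. All 3 H3K9M libraries were above all 3 H3WT libraries in this sum, and its part in the result was not tested. By position the groups overlapped, at 0.71, 0.40 and 0.64 in H3K9M and 0.78, -1.07 and -0.47 in H3WT. Of the 3 macrophage and blood markers tested, 0 were separated. Endothelial markers summed to at most 0.825 CPM in any library, with 3 of 6 at 0 throughout. Adipocyte markers ranged from 3.91 to 15.3 CPM and did not separate the groups.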

How the data were processed

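The table deposited by the authors holds read counts per gene symbol that are not normalized: the values are whole numbers and the libraries have unequal totals. Per the submitters' processing notes, HISAT2, featureCounts and DESeq2 were used with the mm10 build. Their versions, the annotation, the strand setting and the handling of reads with several matches are not given in the sources used here. Each column name equals the title of 1 sample, which gave its group and replicate number, and 0 columns belonged to other samples.

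Counts were fitted in R 4.3.3 with edgeR 4.0.16 (filterByExpr, TMM scaling, robust quasi-likelihood fit, genotype as the only term) on all 6 libraries and 13761 genes, with Benjamini-Hochberg adjustment and a threshold of 0.05. The SE is the log2 fold change divided by the square root of F. Positions of libraries used log2 CPM with a prior count of 2. With 3 libraries against 3, an exact permutation test cannot give a two-sided p below 0.1 and was not run. The fit was tested on simulated data. The members and lists were chosen with earlier results of these data known. Named genes were, for each complex, the 2 highest per length, the 3 with the largest positive and the 3 with the largest negative log2 ratio (read as the lowest where fewer were negative), the tissue isoforms, genes at an unadjusted p under 0.05 and those below the filter. Of other lists they were the 2 with the smallest p, and Ppargc1a, Nrf1, Gabpa, Esrra, Tfam and Ndufa4l2. Ndufs3, Ndufs8, Atp5c1, Atp5e, Atp5j, Atp5s, Atp5sl, Cyc1, Cycs, Ndufa8 and the marker genes were chosen after their values were seen. The values of 1 gene are not reported here.

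Lengths and GC content came from the longest coding transcript per symbol in GENCODE M21 (GRCm38, the same build as mm10), found for 94.3% of tested genes and 78 of the 79 members. Similar transcripts were found with blastn 2.17.0. The fit was repeated with DESeq2 1.42.0 (Wald test), with voom in limma 3.58.1, with the size factors of DESeq2, with library size alone, on every gene with at least 1 count, on genes whose count reached 10 in each library, with a loess offset on length and GC content (span 0.5), and without each library in turn.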

Additional observations from a re-analysis of the deposited data

How the results depend on the processing

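No paired analysis was possible because the groups share only replicate number 1. Under every alternative run, the median log2 fold change of the members and of each complex stayed positive. The members called at an adjusted p under 0.05 were 0 in the reported fit, 10 with the DESeq2 Wald test (Ndufa5, Ndufa6, Ndufa7, Ndufa13, Uqcr10, Uqcrb, Uqcrh, Cox5b, Cox6c and Cox7b, where 2.38% of all tested genes were called), and 0 to 2 when a library was left out. The 2 came without H3WT replicate 2, where 0.639% of all genes were called, and the cause was not tested. The other alternatives gave 0. With the transcript length and GC offset, members at an unadjusted p under 0.05 numbered 10, those whose groups do not overlap 18, and the medians were 0.12 for all members, 0.099 for complex I, 0.26 for complex III, 0.12 for complex IV and 0.091 for complex V. The sign then turned for Ndufb3 -0.024, Atp5s -0.17, Uqcrfs1 -0.020, Ndufs6 -0.075, Atp5o -0.22, Ndufb10 -0.080, Ndufa8 -0.13, Atp5g3 -0.11, Ndufc1 -0.21, Ndufb6 -0.11, Ndufa3 -0.062, Atp5l -0.024, Cox5a -0.14 and Ndufb11 -0.010. With library size alone Ndufv1 turned to 0.040. When a library was left out, the median ran from 0.33 to 0.43 for all members, 0.30 to 0.46 for complex I, 0.41 to 0.55 for complex III, 0.39 to 0.51 for complex IV and 0.22 to 0.37 for complex V. Members at an unadjusted p under 0.05 then numbered 26 (without H3K9M replicate 1) to 47 (without H3WT replicate 2), and those whose groups do not overlap 46 to 58, a looser criterion with 2 libraries in a group. Single genes whose sign turned when a library was left out were Ndufv1 from -0.12 to 0.092, Atp5o from -0.051 to 0.19, Atp5s from -0.14 to 0.36, Cox6b2 from -0.68 to 0.26 and Atp5a1 from -0.013 to 0.11. The sign of 58 of the 75 never turned. Members with no similar transcript and no overlapping gene, an alternative chosen after seeing the data, had a median of 0.29. Depth limits the tissue isoforms of complex IV, whose counts were at most 198 in any library.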
